A study of Homo sapiens with 14 samples.

Results

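The TAL1 complex is a group of transcription factors that drives one form of T cell acute lymphoblastic leukemia, and 10 of its genes were followed here: TAL1, LYL1, LMO1, LMO2, LDB1, TCF3, TCF12, GATA3, RUNX1 and MYB. They were chosen by name as parts or close relatives of the complex, and all 10 were found among the 58440 genes of the files. The samples were 14 RNA-seq libraries from human cell lines in 7 conditions of 2 libraries each: pure HEK-293T cells (100% HEK, 0% Jurkat), mixtures with 80%, 60%, 50%, 40% and 20% HEK cells, and pure Jurkat cells (0% HEK, 100% Jurkat). HEK-293T is a line from human embryonic kidney and Jurkat is a line from a human T cell leukemia. HEK-293T cells were grown in DMEM and Jurkat cells in RPMI, and each mixture held 1000000 cells. For the experiment no gene was altered and no agent was given in any group. Each line is 1 culture and does not stand for its cell type in general. The libraries of a condition are technical replicates by the records. The line and its medium cannot be told apart.

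The complex works as follows. TAL1 and LYL1 are basic helix-loop-helix proteins that bind DNA as partners of the E proteins TCF3 and TCF12, at short sequences called E-boxes. LMO1 and LMO2 do not bind DNA. They hold TAL1 or LYL1 together with LDB1, and the assembly meets GATA3, RUNX1 and MYB at the same enhancers. In blood stem cells and red cell precursors a form of the complex with GATA1 or GATA2 is part of normal development, whereas TAL1 is switched off in maturing T cells. In T cell leukemia with TAL1 active, TAL1, GATA3, RUNX1 and MYB are known to bind one another's regulatory regions.

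The starts of the 4 members whose levels followed the share of Jurkat cells in the mixtures (described below with their values) are shown for reference, since these are the members that the leukemia circuit joins. Each sequence holds 250 bases before and 50 bases after a transcription start in RefSeq (GRCh38.p14), written 5′ to 3′ on the strand of the gene. Capitals mark an E-box (CANNTG), a GATA motif (AGATAA), a RUNX motif (TGTGGT) or a MYB motif (AACNG), each searched on both strands, and no marked motif overlapped another.
TAL1, chr1:47232286-47232585, minus strand: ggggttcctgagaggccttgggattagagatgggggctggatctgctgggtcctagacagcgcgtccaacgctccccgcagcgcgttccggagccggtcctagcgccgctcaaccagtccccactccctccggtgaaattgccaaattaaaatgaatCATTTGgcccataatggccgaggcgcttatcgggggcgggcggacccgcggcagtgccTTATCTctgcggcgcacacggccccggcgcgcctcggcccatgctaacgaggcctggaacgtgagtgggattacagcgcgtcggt
GATA3, chr10:8045083-8045382, plus strand: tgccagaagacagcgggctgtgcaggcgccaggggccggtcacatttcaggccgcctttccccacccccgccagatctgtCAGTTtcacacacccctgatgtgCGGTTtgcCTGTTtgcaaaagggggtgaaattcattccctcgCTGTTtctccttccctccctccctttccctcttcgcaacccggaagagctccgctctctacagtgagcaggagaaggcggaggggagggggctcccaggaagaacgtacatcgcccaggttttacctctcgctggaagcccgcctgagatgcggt
RUNX1, chr21:34888650-34888949, minus strand: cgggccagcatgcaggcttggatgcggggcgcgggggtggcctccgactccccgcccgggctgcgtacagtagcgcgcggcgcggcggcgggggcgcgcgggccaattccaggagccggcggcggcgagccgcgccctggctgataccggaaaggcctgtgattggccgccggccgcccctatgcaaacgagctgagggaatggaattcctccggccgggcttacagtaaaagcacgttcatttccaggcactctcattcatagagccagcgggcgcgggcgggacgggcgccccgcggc
MYB, chr6:135181058-135181357, plus strand: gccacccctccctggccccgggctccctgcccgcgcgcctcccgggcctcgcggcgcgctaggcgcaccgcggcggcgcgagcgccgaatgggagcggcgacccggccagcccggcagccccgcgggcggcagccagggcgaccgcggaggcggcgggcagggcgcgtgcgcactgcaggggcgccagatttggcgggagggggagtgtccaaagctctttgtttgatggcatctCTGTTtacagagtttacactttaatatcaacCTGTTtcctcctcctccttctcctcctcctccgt
The TAL1 window held 1 E-box (CATTTG) and 1 GATA motif (TTATCT on the strand shown). The GATA3 window held 4 MYB motifs and the MYB window 2, and the RUNX1 window, which lies at a start inside the long gene, held none of the 4 motifs. Over the 9 members with a RefSeq window, which leaves out LMO2, an E-box was found in 1, a GATA motif in 2 (TAL1 and LYL1), a RUNX motif in 0 and a MYB motif in 4. Of all 35116 windows of this length, 68.7% held an E-box, 10.3% a GATA motif, 13.1% a RUNX motif and 77.2% a MYB motif. These are matches of letters in a short window and say nothing about binding.

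Levels were compared as CPM, counts scaled to the same total of gene counts in every library, or, where genes were set against each other, as TPM, which is also scaled by length. By the paper, cDNA synthesis started from a primer of T bases that carried the sample barcode. Whether counts grow with transcript length in such libraries was not tested, so that orders of genes by TPM are uncertain. Between 4468822 and 28303668 counts fell on genes in a library (median 13505082). A limit of 3 counts corresponded to between 0.106 and 0.671 CPM, and it covers counting error only, since copies from PCR were not marked. Pure Jurkat was higher for all 8 T cell markers, such as CD3D, LCK and PTPRC, and pure HEK for all 8 epithelial and kidney markers, such as KRT8 and KRT18. The summed level of the T cell list was 2.57 and 5.82 CPM in pure HEK and 2397 and 2833 CPM in pure Jurkat. None of the 4 myeloid markers and 2 of the 4 B cell markers passed the filter on low counts, CD79A among them, which was higher in Jurkat. The names of the files divide the libraries into a group of 8, with both pure Jurkat libraries, and a group of 6, with both pure HEK libraries, so that the file-name group and the cell line coincide there and cannot be told apart.

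**Figure D1:**
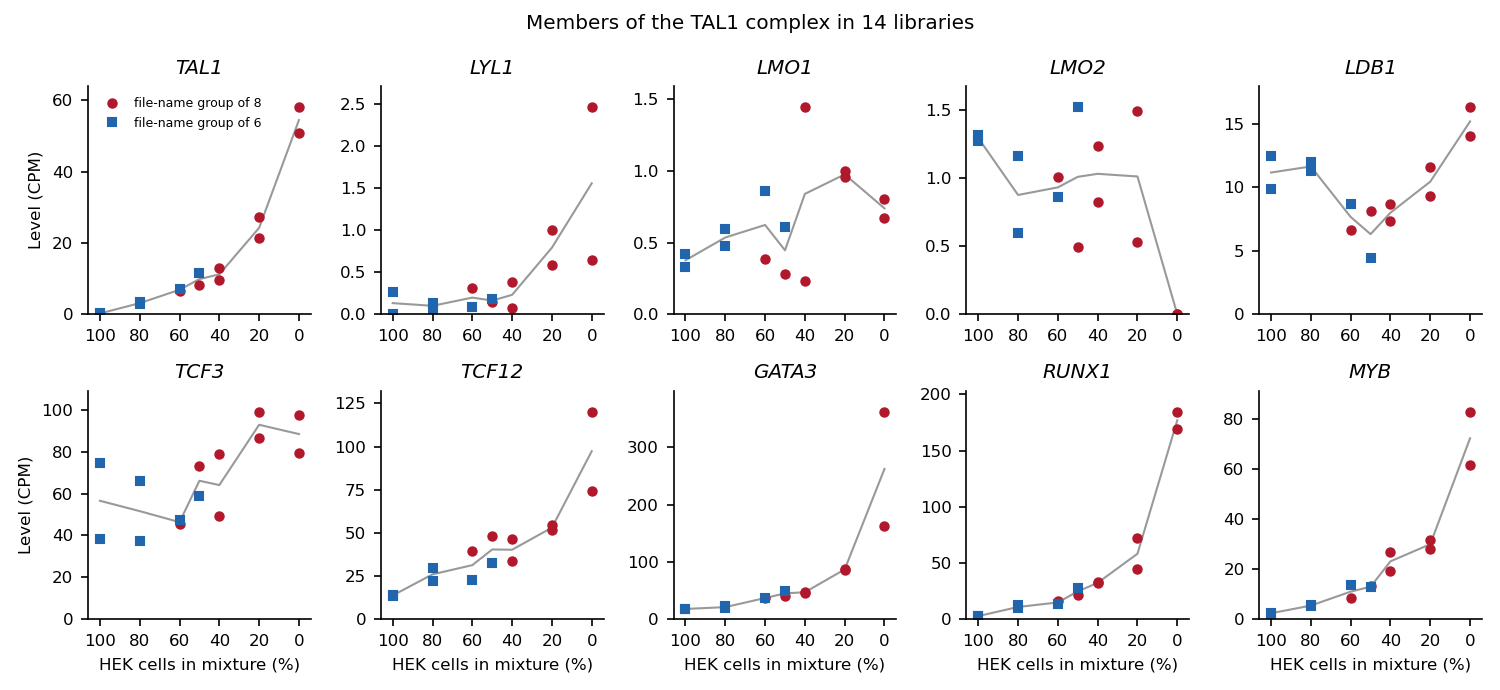
CPM of the 10 members (vertical axes, linear, from 0, a scale for each gene) against the percentage of HEK cells in the mixture (horizontal axes, from pure HEK on the left to pure Jurkat on the right). Points are single libraries, with the file-name groups in red circles (8 libraries) and blue squares (6 libraries), and grey lines join the means of 2 libraries. TAL1, GATA3, RUNX1 and MYB climb toward pure Jurkat, LMO2 is at 0 in both pure Jurkat libraries, and LDB1 is lowest in the middle of the series.

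The factor that gives the complex its name had the largest difference between the lines among the 7 members that could be tested. TAL1 (ENSG00000162367.11, chromosome 1, 47216290 to 47232225, minus strand, GRCh38) was at 0.317 and 0.132 CPM in the pure HEK libraries, which are 3 and 2 counts. It was at 50.7 and 58.2 CPM in the pure Jurkat libraries. Both pure HEK values were at or under the limit of 3 counts, and both pure Jurkat values were far above it. In the mixtures TAL1 was at 3.31 and 2.92 CPM with 80% HEK cells, 7.10 and 6.63 CPM with 60%, 8.30 and 11.4 CPM with 50%, 9.50 and 12.9 CPM with 40%, and 27.2 and 21.4 CPM with 20%. No mixed library reached down to the pure HEK values or up to the pure Jurkat values. Pooled over the libraries of a line, 588 counts in Jurkat stood against 5 in HEK, a ratio of 271 in pooled CPM with an exact 95% interval of 116 to 838.

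A long noncoding RNA gene that overlaps TAL1 on the opposite strand (ENSG00000226252) followed the same course. It had 0 counts in both pure HEK libraries and 6.55 and 5.10 CPM in the pure Jurkat libraries, which is at least 46.9-fold higher when HEK is set to the limit of 3 counts over both libraries. In the mixtures it ranged from 0.446 to 3.88 CPM. The paper calls its libraries strand-specific, but no source says that the counting used the strand. Whether reads of TAL1 and of this gene were kept apart where they overlap is therefore not known.

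LYL1, the closest relative of TAL1 in sequence and able to take its place in the complex, was near the limit of detection. LYL1 (ENSG00000104903.4, chromosome 19, 13099033 to 13103161, minus strand) was at 0 and 0.264 CPM in pure HEK and at 2.46 and 0.645 CPM in pure Jurkat. The mixtures ranged from 0.0682 to 0.995 CPM with a median of 0.162 CPM, and the highest pair was that with 20% HEK cells (0.584 and 0.995 CPM). The pure groups did not overlap, but the Jurkat values differed from each other by 3.82-fold. The pooled ratio of 15 counts to 4 was 8.65, with an exact 95% interval of 2.75 to 35.8.

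The bridging proteins were low in both lines. LMO1 (ENSG00000166407.13, chromosome 11, 8224309 to 8268716, minus strand) was at 0.423 and 0.330 CPM in pure HEK and at 0.671 and 0.806 CPM in pure Jurkat. These are 9 and 8 counts in all, and the pooled ratio of 2.05 had an interval of 0.688 to 5.98, so that no difference was detectable at this depth. LMO1 in the mixtures ranged from 0.232 to 1.45 CPM, across and beyond the values of the pure lines.

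Between the pure lines LMO2 lay on the opposite side to TAL1. LMO2 (ENSG00000135363.11, chromosome 11, 33858576 to 33892076, minus strand) was at 1.27 and 1.32 CPM in pure HEK, and no count was found in either pure Jurkat library, which allows up to 0.671 and 0.484 CPM. Pooled over each line, 32 counts stood against 0, and LMO2 was at least 4.63-fold higher in HEK when Jurkat is set to the limit of 3 counts over both libraries. LMO2 was detected in all 10 mixtures, from 0.495 to 1.52 CPM, and the mixtures with 20% HEK cells were at 0.531 and 1.49 CPM.

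LDB1, which dimerizes and brings distant elements together, was present in both lines at a similar level. LDB1 (ENSG00000198728.10, chromosome 10, 102106489 to 102120368, minus strand) was at 12.5 and 9.83 CPM in pure HEK and 16.3 and 14.0 CPM in pure Jurkat. The groups did not overlap, yet the gap between them was smaller than the spread within either line. In the mixtures it was at 11.3 and 12.0 CPM with 80% HEK cells, 8.67 and 6.65 CPM with 60%, 8.16 and 4.45 CPM with 50%, 8.65 and 7.34 CPM with 40%, and 9.28 and 11.6 CPM with 20%. The 6 libraries with 60%, 50% and 40% HEK cells were all below every pure library.

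Of the E proteins, TCF3 was high in both lines and TCF12 was higher in Jurkat. TCF3 (ENSG00000071564.14, chromosome 19, 1609291 to 1652615, minus strand), which encodes E12 and E47, was at 38.5 and 74.6 CPM in pure HEK and at 79.2 and 97.7 CPM in pure Jurkat. In the mixtures it ranged from 37.2 to 99.2 CPM, and all 4 pure values lay inside that range. TCF12 (ENSG00000140262.17, chromosome 15, 56918623 to 57299281, plus strand), which encodes HEB, was at 13.6 and 13.7 CPM in pure HEK and at 74.3 and 120.2 CPM in pure Jurkat. It was at 22.3 and 29.6 CPM with 80% HEK cells, 22.9 and 39.6 CPM with 60%, 47.9 and 32.7 CPM with 50%, 46.6 and 33.8 CPM with 40%, and 51.5 and 54.5 CPM with 20%. Every mixture lay between the pure lines, with no steady order among the mixtures from 60% to 40% HEK cells.

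The partner factors GATA3, RUNX1 and MYB were all higher in Jurkat, and all 3 were above the limit of 3 counts in HEK, where GATA3 had the highest level. GATA3 (ENSG00000107485.16, chromosome 10, 8045378 to 8075198, plus strand), the GATA factor of T cells, was at 17.4 and 18.1 CPM in pure HEK and at 362.7 and 162.3 CPM in pure Jurkat. The Jurkat libraries differed by 2.23-fold, the HEK libraries by 1.04-fold. GATA3 was at 22.3 and 19.6 CPM with 80% HEK cells, 36.6 and 37.0 CPM with 60%, 41.0 and 49.0 CPM with 50%, 47.4 and 46.4 CPM with 40%, and 88.4 and 85.3 CPM with 20%. The lower pure Jurkat library was still above every mixture.

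RUNX1 (ENSG00000159216.18, chromosome 21, 34787801 to 36004667, minus strand), a runt-domain factor needed for blood stem cells and T cells, was at 2.96 and 2.37 CPM in pure HEK and at 184.8 and 169.2 CPM in pure Jurkat. It was at 9.43 and 12.1 CPM with 80% HEK cells, 13.5 and 16.2 CPM with 60%, 21.2 and 28.1 CPM with 50%, 32.8 and 31.7 CPM with 40%, and 44.2 and 72.2 CPM with 20%. Conditions next to each other in this order did not overlap for RUNX1. MYB (ENSG00000118513.18, chromosome 6, 135181308 to 135219173, plus strand), a factor of immature blood cells, was at 2.12 and 2.57 CPM in pure HEK and at 61.8 and 83.2 CPM in pure Jurkat. It was at 5.08 and 5.73 CPM with 80% HEK cells, 13.6 and 8.43 CPM with 60%, 13.1 and 12.8 CPM with 50%, 19.3 and 27.0 CPM with 40%, and 28.2 and 31.8 CPM with 20%. For MYB the conditions with 60% and 50% HEK cells overlapped and the others did not.

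Set against each other in TPM, whose scaling by length was not tested here, the factors of the complex took different places in the 2 lines. In pure Jurkat, GATA3 had a mean of 94.6 TPM ± 53.1 (SD, n = 2), TCF3 87.2 TPM ± 18.3, TCF12 61.3 TPM ± 49.1, RUNX1 37.2 TPM ± 0.134, MYB 24.5 TPM ± 5.39, TAL1 12.3 TPM ± 1.06 and LDB1 6.86 TPM ± 0.559. LYL1 was at 1.02 TPM ± 0.856, LMO1 at 0.945 TPM ± 0.106 and LMO2 at 0 TPM. The libraries of GATA3, TCF3 and TCF12 overlapped, and so did those of TCF12 and RUNX1, whereas RUNX1, MYB, TAL1 and LDB1 followed each other without overlap. LYL1 and LMO1 overlapped. In pure HEK, TCF3 led with 56.5 TPM ± 34.4, followed without overlap by GATA3 with 6.46 TPM ± 0.255, LDB1 with 5.26 TPM ± 0.962 and TCF12 with 3.46 TPM ± 0.134. RUNX1, LMO2 and MYB came next at 1.28, 0.860 and 0.780 TPM, and TAL1 was last with 0.05 TPM ± 0.0283, within the range of LYL1 (0 and 0.18 TPM). The TCF12 libraries of pure Jurkat lay 1.62-fold apart in CPM but at 26.6 and 96.0 in TPM, where the length that RSEM assigns to a gene in a library also enters.

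**Figure D2:**
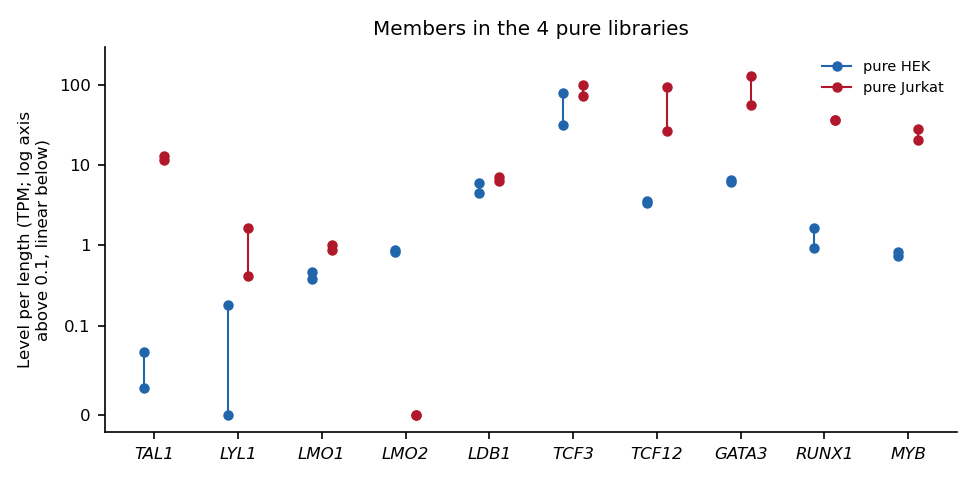
TPM of the 10 members in the 4 pure libraries (vertical axis, log scale above 0.1 and linear below). Each point is a library, with pure HEK in blue and pure Jurkat in red, and a line joins the libraries of a line. TAL1 is under 0.1 TPM in HEK and near 12.3 TPM in Jurkat, and LMO2 is at 0 in Jurkat.

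The difference between the pure lines, the comparison that the study itself made, was tested across 15794 genes with edgeR's quasi-likelihood test and Benjamini-Hochberg adjustment. Of the 10 members, 7 passed the filter on low counts and LMO1, LMO2 and LYL1 did not. TAL1, RUNX1, MYB, GATA3 and TCF12 were higher in Jurkat and none was higher in HEK, beside a background of 19% of all tested genes higher in Jurkat and 24.2% higher in HEK. The log2 fold change was 8.17 (SE 0.40, adjusted p = 0.00064) for TAL1, 6.28 (SE 0.27) for RUNX1 and 5.16 (SE 0.31) for MYB. It was 4.11 (SE 0.45) for GATA3 and 3.06 (SE 0.32) for TCF12, and the adjusted p of these 4 was between 0.00064 and 0.00261. The difference of TCF3 was 0.87 (SE 0.37, adjusted p = 0.114) and that of LDB1 0.67 (SE 0.24, adjusted p = 0.0762), neither past 0.05. The median over the tested members was 4.11, beside -0.07 over all tested genes.

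A fit over all 14 libraries, in which the 7 conditions share an estimate of the spread, could also test the low members. LYL1 then passed as higher in Jurkat (log2 fold change 3.44, adjusted p = 0.0247) and LMO2 as higher in HEK (adjusted p = 0.00917), and LMO1 did not pass (adjusted p = 0.279). In this fit of 19129 genes, 17.9% were higher in Jurkat and 23.8% higher in HEK. The LYL1 call rests on few counts, 11 of those in pure Jurkat being in replicate 1. LYL1 passed the filter through libraries rich in Jurkat cells, where it is highest. In the pure comparison its log2 fold change was 2.63 without pure HEK replicate 1 and 6.45 without pure HEK replicate 2. Without the filter on low counts, the 4 pure libraries alone also gave 6 members higher in Jurkat and 1 higher in HEK. Of the 31686 genes tested in that setting, 3550 were higher in Jurkat and 5352 higher in HEK.

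These differences are relative to all gene counts of a library. ERCC spike-ins are synthetic RNAs added in a fixed volume to each sample, and they made up from 0.674% to 7.65% of the counts, with the largest shares in pure Jurkat. Scaled to the spike-ins, the median difference of all tested genes moved from -0.07 to -3.61 on the log2 scale, with 3.22% of genes higher in Jurkat and 92.5% higher in HEK. On this scale TAL1 was still higher in Jurkat by 4.75, RUNX1 by 2.74 and MYB by 1.67 (log2, all past an adjusted p of 0.05). GATA3 was at 0.57 (adjusted p = 0.277) and TCF12 at -0.48 (adjusted p = 0.353), neither past 0.05. TCF3 (-2.58) and LDB1 (-2.90) were lower in Jurkat. In counts scaled to the same total of spike-in counts, the mean of TAL1 was 29.8 in pure HEK and 665.2 in pure Jurkat, that of GATA3 was 2159 and 3190, and that of LDB1 was 1399 and 185.0. Each mixture held the same number of cells by the records, but from the counts alone fewer cells and less RNA per cell cannot be told apart.

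**Figure D3:**
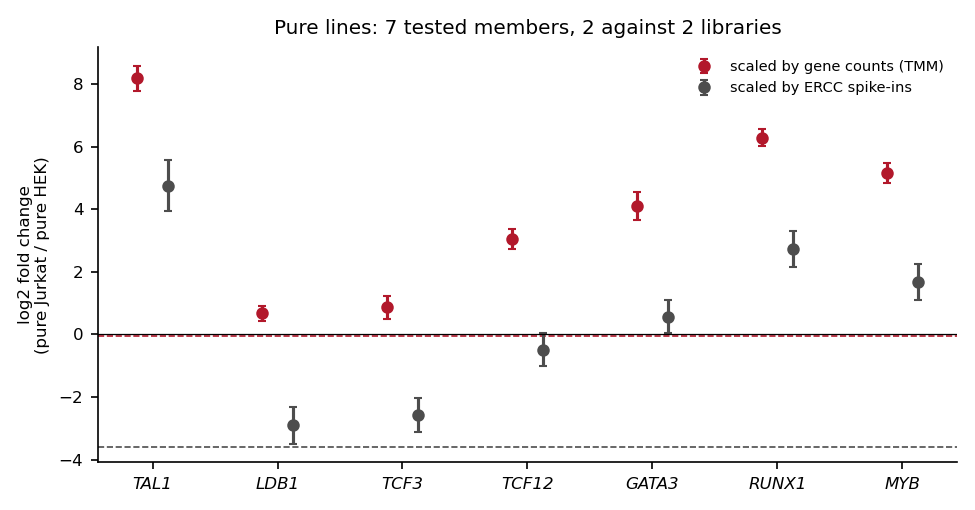
log2 fold change of the 7 tested members between pure Jurkat and pure HEK (vertical axis, values above 0 higher in Jurkat), scaled by gene counts in red and by ERCC spike-ins in grey. Points are edgeR estimates from 2 against 2 libraries, bars are ± 1 SE, and dashed lines are the medians of all tested genes (-0.07 and -3.61). TAL1, RUNX1 and MYB stay above 0 on both scales, whereas TCF3, LDB1 and TCF12 go below 0 with the spike-ins.

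The mixtures gave a second reading of the same contrast, in libraries that the pure comparison did not use. The slope of the log2 level on the percentage of Jurkat cells was tested over the 10 mixed libraries, for 17242 genes, of which 5.08% rose and 0.528% fell with more Jurkat cells. Of the 9 members tested, TAL1, MYB, RUNX1 and GATA3 rose and none fell. TAL1 rose by 0.49 (SE 0.04, adjusted p = 6.76e-06) on the log2 scale for every 10 percentage points more Jurkat cells. The slope was 0.44 for MYB, 0.43 for RUNX1 and 0.34 for GATA3, with adjusted p from 3.21e-05 to 5.17e-05. TCF12 had a slope of 0.19 (adjusted p = 0.0710), TCF3 0.16 (adjusted p = 0.162), LMO1 0.16, LMO2 0.05 and LDB1 -0.01, none past 0.05. LYL1 did not pass the filter. Beside them, all 8 T cell markers rose, with a median slope of 0.54.

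Within the 6 mixed libraries of the larger file-name group, the slopes were 0.49 for TAL1, 0.47 for RUNX1, 0.43 for MYB and 0.34 for GATA3. TAL1 and RUNX1 passed, beside 203 rising and 0 falling of 17605 tested genes. Within the 4 mixed libraries of the smaller group these slopes were 0.55, 0.34, 0.40 and 0.34. TAL1 passed, beside 165 rising and 434 falling of 17458 tested genes. With the file-name group as a covariate over all 10, the same 4 members rose, beside 481 rising and 31 falling of 17807 tested genes. On the spike-in scale none of the 4 passed as rising (slopes from 0.04 for GATA3 to 0.19 for TAL1, adjusted p from 0.0699 to 0.698). The median slope of all tested genes was then -0.31, with 13485 of 17242 genes falling and 212 rising. LDB1 fell by 0.32 (adjusted p = 0.00477), near that median. The spike-in share varied within a condition, with 2.10% and 0.805% of counts in the libraries with 80% HEK cells. A slope that did not pass on this scale therefore does not show that a level stayed the same.

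At the smallest share of Jurkat cells, TAL1 and RUNX1 could already be told from pure HEK. The condition with 20% Jurkat cells was compared with pure HEK in the fit over all 14 libraries, where 0.941% of 19129 genes were higher in the mixture. TAL1 was higher by 3.92 on the log2 scale (SE 0.39, adjusted p = 0.000282) and RUNX1 by 2.08 (SE 0.30, adjusted p = 0.00317). The call for RUNX1 was lost without pure HEK replicate 2 (1.93, adjusted p = 0.0903). MYB was at 1.25 (adjusted p = 0.0980), TCF12 at 0.98, LMO1 at 0.59 and GATA3 at 0.31, none past 0.05. The differences of LMO2, LYL1, TCF3 and LDB1 lay between -0.51 and 0.13. For GATA3, a mean of 20.9 CPM stood against 17.7 CPM. All 8 T cell markers were higher in the mixture as well, with a median log2 difference of 4.77. In the fit on these 4 libraries alone, RUNX1 passed and TAL1 did not (adjusted p = 0.0501), and by DESeq2 MYB passed too (adjusted p = 0.0459).

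Levels in a mixture depend on the share of RNA that each line gives, which was below the share of cells for Jurkat. From 1807 genes that differed at least 4-fold between the lines, members and listed genes left out, Jurkat RNA made up 4.07% and 4.98% of the libraries with 20% Jurkat cells, 7.79% and 9.28% with 40%, 11.2% and 17.0% with 50%, 17.2% and 21.2% with 60%, and 38.6% and 40.5% with 80%. The level expected if RNA simply adds was computed from these shares and the pure means for the 8 members with an expected level of at least 0.5 CPM, which leaves out LMO1 and LYL1. TCF12 was above it in 10 of 10 mixtures, by a median of 1.34-fold (1.08 to 1.85). It was the only member on one side throughout, beside 6.72% of all genes, and without pure Jurkat replicate 1 it was no longer so. TAL1 was above in 8 of 10, with a median ratio of 1.21 (0.811 to 1.82), and MYB in 6 of 10, with a median of 1.09. RUNX1 had a median ratio of 0.844, LMO2 of 0.813 and TCF3 of 1.06. With the RNA share from the mixed percentage and pure-library spike-ins instead, RUNX1 turned to a median of 1.27, above in 8 of 10. TAL1 was then at 1.81 and MYB at 1.45, both above in 10 of 10, beside 7.32% of all genes on one side. GATA3 was at 0.992. The medians of MYB (0.953 without pure Jurkat replicate 1) and TCF3 (0.825 without pure HEK replicate 1) also turned with 1 library left out.

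GATA3 lay below the additive level in 9 of 10 mixtures, with a median ratio of 0.758 (0.681 to 1.09), and its pure Jurkat mean rests on 2 libraries 2.23-fold apart. Leaving out pure Jurkat replicate 2, the lower of them, put GATA3 below in 10 of 10, with a median of 0.626, whereas leaving out replicate 1 turned the direction, with a median of 1.14 and 6 of 10 above. LDB1 was also below in 9 of 10, with a median of 0.723. Its lowest ratio was 0.383, in replicate 2 with 50% HEK cells, and its highest was 1.06, with 80% HEK cells. Without pure HEK replicate 2 it was below in 10 of 10. None of the 8 members was on one side with a median deviation of 1.5-fold or more, beside 3.36% of all genes.

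**Figure D4:**
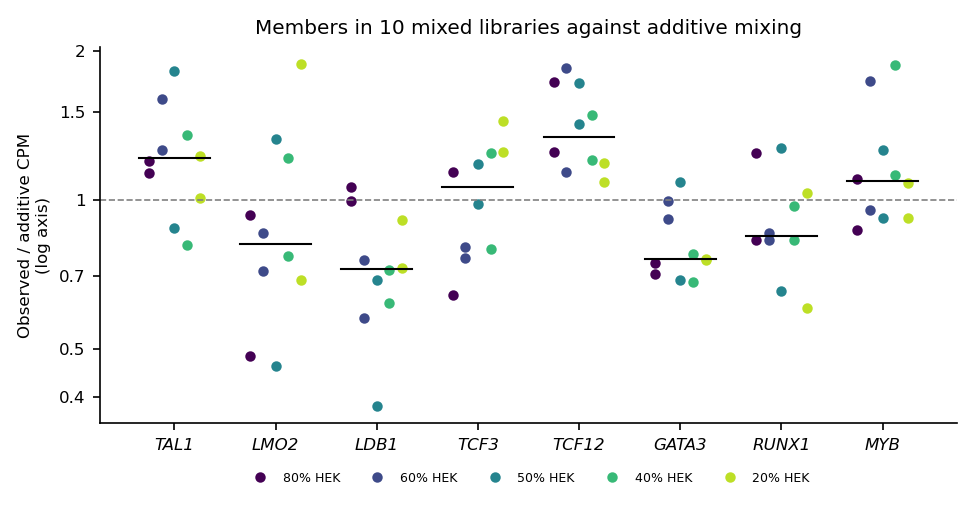
Observed CPM divided by the CPM expected from additive mixing (vertical axis, log scale) for 8 members in the 10 mixed libraries. Points are libraries coloured by their percentage of HEK cells, short black lines are medians, and the dashed line at 1 is additive mixing. All 10 points of TCF12 lie above 1, and 9 of 10 points of GATA3 and of LDB1 lie below it.

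The proteins that can take E proteins away from TAL1 differed between the lines one by one. ID proteins bind E proteins without DNA. Of the 4 ID genes and TCF4, the remaining E protein, all 5 passed the filter on low counts. Higher in Jurkat were 2 and in HEK 3 (median log2 fold change -1.78), beside 19% and 24.2% of all tested genes. ID1 was at 4.23 and 3.43 CPM in pure HEK and 14.5 and 14.8 CPM in pure Jurkat (2.17), and ID3 at 18.2 and 19.9 CPM and 77.2 and 60.8 CPM (2.08). Both also rose in the mixtures. ID2 was at 435.0 and 495.3 CPM in pure HEK and 17.0 and 17.2 CPM in pure Jurkat (-4.54), and ID4 (-5.85) and TCF4 (-1.78) were lower in Jurkat too. On the spike-in scale all 5 were lower in Jurkat, as were 92.5% of all tested genes.

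Relatives of the members differed in level between the lines, in both directions. Of 15 paralogs, 10 were tested, 2 were higher in Jurkat and 4 in HEK (median -0.56), beside 19% and 24.2% of all tested genes. RUNX2 (2.93) and RUNX3 (2.07) were higher in Jurkat on the scale of gene counts, as RUNX1 was, and on the spike-in scale they were at -0.46 and -1.44. The GATA factors other than GATA3 went the other way: GATA6 was at 9.42 and 11.0 CPM in pure HEK and at 0 in both pure Jurkat libraries, GATA4 was lower in Jurkat by a log2 fold change of -4.72 and GATA2 by -2.41. GATA1, the GATA factor of the red cell form of the complex, had no count in the pure libraries, nor had LDB2. NHLH2, a helix-loop-helix relative of TAL1, was at 8.36 and 10.0 CPM in pure HEK and at 0 in pure Jurkat. LMO4, which also binds LDB1, was at 219.0 and 283.9 CPM in pure HEK and at 110.6 and 140.2 CPM in pure Jurkat (-0.78, adjusted p = 0.0574).

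Among 15 cofactors 14 were tested, with 6 higher in Jurkat and 1 in HEK (median 0.77), beside 19% and 24.2% of all tested genes. CBFA2T3, a corepressor known to bind the TAL1 complex, was at 0.741 and 0.792 CPM in pure HEK and at 33.6 and 61.4 CPM in pure Jurkat (6.15). It also rose in the mixtures, and it was the 1 cofactor past the threshold with 20% Jurkat cells (2.42, adjusted p = 0.0349) and the 1 higher in Jurkat with the spike-ins (2.69). Its relative RUNX1T1 was at 88.9 and 67.0 CPM in pure HEK and at 0.224 and 0.322 CPM in pure Jurkat (-7.83). The LDB1 partners SSBP2 (2.73) and SSBP3 (1.12), the corepressor RCOR1 (45.6 and 32.3 CPM in pure HEK, 58.4 and 128.3 CPM in pure Jurkat), CBFB (0.88), the partner of RUNX proteins, and CBFA2T2 (0.70) were higher in Jurkat on the scale of gene counts only.

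Genes that TAL1, LMO2 or the complex is known to activate were 10, of which 7 were tested. Higher in Jurkat were 5 and in HEK 2 (median 2.91), beside 19% and 24.2% of all tested genes. CDK6, a cell cycle kinase, was at 178.5 and 170.0 CPM in pure HEK and at 4828 and 3473 CPM in pure Jurkat (4.80), and of the 7 it was the only one still higher with the spike-ins (1.24, adjusted p = 0.0135). TRIB2 was higher by 3.37, ARID5B by 2.91 and ALDH1A2 by 1.81. In the mixtures CDK6, TRIB2 and ALDH1A2 rose. HHEX and KIT, both known from studies of blood progenitors or of LMO2, were higher in HEK (-5.14 and -2.80), and ERG, NFE2 and EPB42 had at most 5 counts in either line. Of 6 genes that E proteins are known to activate in thymocytes, 2 were tested, beside the shares of all tested genes given above. NOTCH1 was higher in Jurkat (2.41), whereas NOTCH3 was at -0.80 (adjusted p = 0.0774, not past 0.05). On the spike-in scale both were lower in Jurkat (-1.17 and -4.35), as were 92.5% of all tested genes. PTCRA, RAG1, RAG2 and CD4 had from 8 to 12 counts in Jurkat and from 0 to 4 in HEK.

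Other oncogenic transcription factors of T cell leukemia were mostly on the HEK side. Of 12 listed, 9 were tested, 2 higher in Jurkat and 6 in HEK (median -6.86), beside 19% and 24.2% of all tested genes. BCL11B, a T cell factor, was at 11.8 and 11.5 CPM in pure HEK and at 578.2 and 537.4 CPM in pure Jurkat (5.80), and MYCN had 1 count in HEK and 18 in Jurkat. HOXA10 (-9.02), HOXA9 (-8.24), MEF2C (-6.86) and NKX2-2 (-3.58) were lower in Jurkat, and NKX2-1 and OLIG2 had no count there. MYC was at 57.0 and 55.0 CPM in pure HEK and at 51.5 and 58.3 CPM in pure Jurkat (0.20, adjusted p = 0.460). Of the 8 erythroid and megakaryocyte markers, HBB, HBG1, ALAS2 and PF4 had no count in the pure libraries and ITGA2B was higher in HEK (-2.48).

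**Figure D5:**
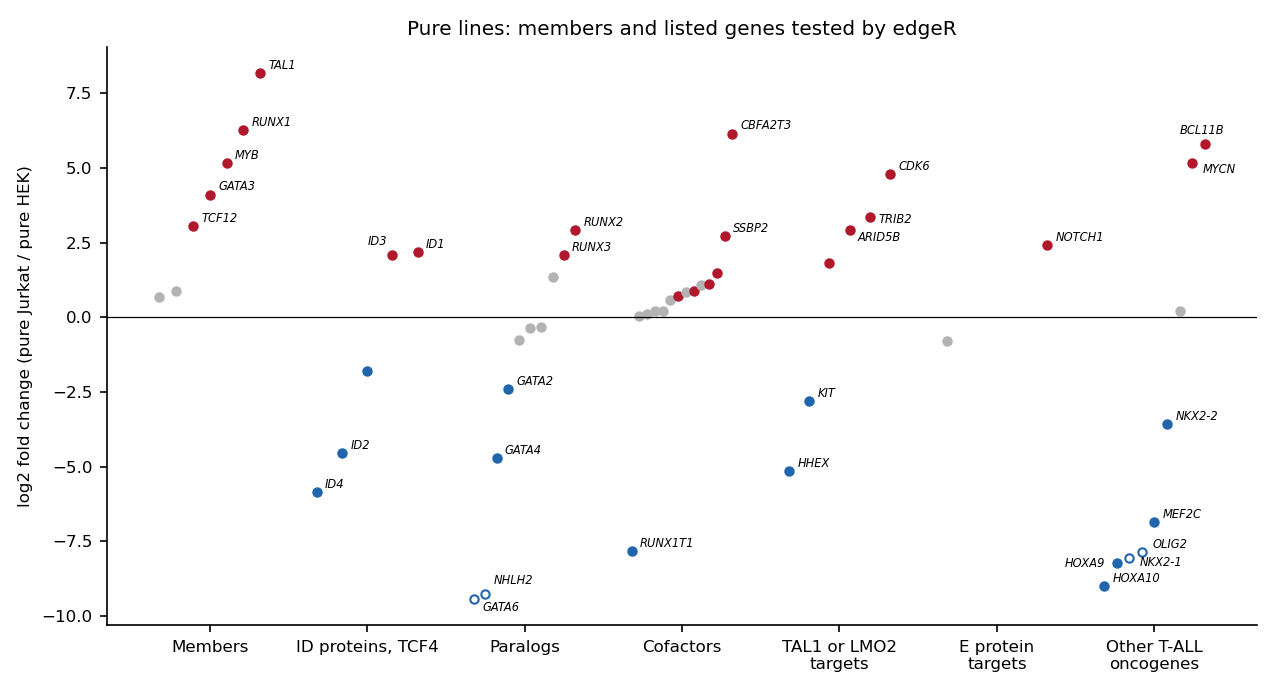
log2 fold change between pure Jurkat and pure HEK (vertical axis, scaled by gene counts) of the members and of the genes of 6 lists that passed the filter on low counts (1 target gene is not shown), each point a gene fitted on 2 against 2 libraries. Red points were higher in Jurkat and blue points higher in HEK at an adjusted p of 0.05, grey points did not pass, and open points had no count in one line, so that their place depends on the fit. The members lie at or above 0, the target genes run from -5.14 to 4.80, and the other oncogenic factors lie mostly below -3.

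The genes beside the members on the chromosome were called in both directions. Of the 20 nearest protein-coding neighbours, 15 were tested, 3 were higher in Jurkat (STIL, TAF3 and CELF2) and 3 in HEK (FBXO3, CGNL1 and UQCR11). These counts are near the shares of all tested genes, 19% higher in Jurkat and 24.2% higher in HEK. STIL, 17914 bases from TAL1, was at 14.5 and 15.4 CPM in pure HEK and at 28.9 and 31.3 CPM in pure Jurkat (1.24, adjusted p = 0.00885), and its slope in the mixtures was 0.04 (adjusted p = 0.683). PDZK1IP1, on the other side of TAL1, had no count in the 4 pure libraries and at most 0.0610 CPM in a mixture. CELF2, the gene next to GATA3 on one side though 2723199 bases away, was higher in Jurkat by 3.72 and rose in the mixtures with a slope of 0.21.

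The genes whose CPM over the 14 libraries were most like those of TAL1, by Pearson correlation among 9217 other genes with a mean of at least 10 CPM, were GIMAP1 (0.998), CD1E (0.997), ACSF3 (0.996), ICAM2 (0.996) and PSMB9 (0.995). GIMAP1, a gene of lymphocytes, was at 0 and 0.0660 CPM in pure HEK and at 36.0 and 40.1 CPM in pure Jurkat. ACSF3, a mitochondrial enzyme gene, was at 24.6 and 21.9 CPM in pure HEK and at 151.6 and 175.0 CPM in pure Jurkat. Of the members, MYB (0.981) and RUNX1 (0.970) came closest to TAL1, followed by TCF12 (0.927), GATA3 (0.852), LYL1 (0.743), TCF3 (0.647), LDB1 (0.559), LMO1 (0.352) and LMO2 (-0.716). Over the 10 mixed libraries alone the order changed, with GATA3 first (0.980), then MYB (0.883), RUNX1 (0.844) and LYL1 (0.806), and LMO2 at 0.03. All values describe libraries that share their mixing shares and the 2 pure Jurkat points, and they carry no test.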

How the data were processed

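RNA-seq was examined for 14 libraries. The authors aligned the reads with STAR 2.6.1b to GRCh38 with the ERCC sequences, counted them with RSEM 1.3.1, and deposited expected counts, not normalized, and TPM per library (tools per the submitters' processing notes). The annotation release is not given in the sources used here. The series table repeats these expected counts and was not used. The members and lists were chosen with earlier results of these data known.

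Symbols and positions came from GENCODE release 44 by identifier, versions removed, for 57754 of 58440 genes, and unmatched genes took 0.327% of a library's counts or less. CPM used the total of gene counts, spike-ins left out. Expected counts were rounded and tested with edgeR 4.0.16 (glmQLFit, TMM, filterByExpr, Benjamini-Hochberg at 0.05) in R 4.3.3. DESeq2 1.42.0, the study's tool, and limma 3.58.1 on log2(TPM + 1) were alternatives, beside other scalings, filters, file-name groups and each library left out. Ratios of low counts have exact 95% binomial intervals. Named genes were the members, at most the 4 largest calls a direction of each list with the genes a list turns on, nearest neighbours, and the 5 genes most like TAL1. CBFB, CBFA2T2, LMO4, NOTCH3, ENSG00000226252 and list genes at or near 0 were named after their values were seen. Depth ran from 4468822 to 28303668 gene counts. The fits and the additive step were tested on simulated data. Values of some listed genes are not reported here.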

Additional observations from a re-analysis of the deposited data

How the results depend on the processing

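The 5 members higher in pure Jurkat remained called with DESeq2 size factors, DESeq2, limma on TPM and each library left out (5 members in every case). With spike-in scaling 5 were called, 3 higher and 2 lower in Jurkat, and TCF12 (-0.48), TCF3 (-2.58) and LDB1 (-2.90) changed sign, as all genes shifted by the median given above. Of the mixture slopes, 1 member was called with spike-in scaling (LDB1, falling), beside 13485 of 17242 genes falling and 212 rising. Within a file-name group, where fewer samples enter, 2 were called in the 6 libraries and 1 in the 4 libraries. Of all genes there, 203 of 17605 rose in the 6 libraries, and 165 of 17458 rose and 434 fell in the 4 libraries. Between 4 and 5 members were called with a library left out (TCF3 was added without replicate 1 at 80% HEK). DESeq2 and the RNA share as predictor gave 5, adding TCF12. Between 20% Jurkat and pure HEK, 1 member was called with spike-in scaling (TAL1), 1 in the fit on 4 libraries (RUNX1), and between 1 and 2 with a library left out. Without the filter and with DESeq2 there were 3. Members on one side of additive mixing were 0 at 1.5-fold, 3 with the RNA share from the spike-in coefficient (TAL1, MYB and TCF12) and from 0 to 2 with a pure library left out. The share of all genes on one side was 3.36% at 1.5-fold, 7.32% with the spike-in coefficient and from 6.28% to 11.5% with a pure library left out. Where no cause is named, the cause was not tested.

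Over all genes, the pure lines gave 6827 calls, against 15125 with spike-ins and 3194 and 3131 without pure HEK replicate 1 and 2. The mixtures gave 967, against 13697 with spike-ins, 512 with the file-name covariate, 203 and 599 within the file-name groups, and 572 without replicate 1 at 20% HEK. The 20% Jurkat comparison gave 182, against 665 without the filter, 76 on 4 libraries and 106 without pure HEK replicate 2. Depth limits LMO1, LMO2 and LYL1, which had 32 counts or fewer per line.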
